A study of Mus musculus with 6 samples.

Results

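Histone genes fall into clustered genes, whose mRNAs are made mainly during DNA replication, and variant genes. Variant genes mostly lie outside the clusters and are transcribed throughout the cell cycle. The genes described here were the protein-coding genes whose symbols begin with Hist1h, Hist2h, Hist3h or Hist4h (clustered) or with H1f, H2af or H3f3 (variant). They were 80 of 49671 genes counted: 65 clustered and 15 variant. The study compared embryonic mouse pancreas at 14.5 days, strain C57BL/6J, in 3 control libraries and in 3 libraries treated with 10 µM AMI-5. No genetic change is given in the labels for either group, and for the length and vehicle of the treatment the sources used here give nothing. AMI-5 is a small molecule known as an inhibitor of arginine methyltransferases, enzymes that modify histones among other proteins. Strand-specific RNA libraries were sequenced, with 12445425 to 13321899 gene counts in each control library and 22894312 to 24805188 in each AMI-5 library.

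The labels name the Ultra II library kit, and the Ultra I kit for samples called A. The control titles carry A1 to A3 and the AMI-5 titles Am1 to Am3, so that, read literally, library kit and treatment cannot be told apart. Whether the libraries of one group came from separate animals or cultures is not in the labels, so a p-value measures the spread among these 6 libraries alone, and that spread may be technical. Markers of pancreatic epithelium, of which 1 was higher and 5 lower of 8 (8086 to 10200 CPM, reads per 1000000 after scaling of library sizes, summed in controls and 9566 to 11426 with AMI-5) and of mesenchyme (7291 to 7683 and 7104 to 8129 over 5 genes, 1 higher and 1 lower) were abundant in all libraries. The summed level of 5 erythroid markers ran from 11.7 to 30.8 CPM in controls and from 59.0 to 176 with AMI-5, with 3 markers higher and 1 lower, and that of 5 leukocyte markers from 260 to 299 and from 437 to 469, with 3 higher and 0 lower. Over 4 neural crest and glia markers it ran from 71.4 to 77.0 and from 56.8 to 66.3, with 1 higher and 2 lower, and over 4 endothelial markers from 333 to 410 and from 274 to 398, with 0 called. None of these markers' part in the results was tested. In bulk tissue, fewer cells of a type and less RNA per cell cannot be told apart.

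Nucleosomes hold DNA around a core of histones H2A, H2B, H3 and H4, and linker histone H1 binds where the DNA enters and leaves. Clustered histone genes have no introns, and their mRNAs usually end just after a short stem-loop that is bound by the stem-loop binding protein, in place of a poly(A) tail. Variant genes mostly lie singly and mostly give polyadenylated mRNAs, and some of them have introns. Their proteins can replace the standard histones in chromatin outside S phase.

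The clustered genes lay at 4 places of the mm10 build: 52 Hist1 genes on chromosome 13 (21715763 to 23934851), 10 Hist2 genes on chromosome 3 (96219865 to 96270132), 2 Hist3 genes on chromosome 11 (58948920 to 58956830) and the single Hist4 gene on chromosome 6 (136801553 to 136804415). By type they were 6 genes for H1, 18 for H2A, 16 for H2B, 12 for H3 and 13 for H4. In the gene models, 60 of the 65 clustered genes were 1 uninterrupted exon, against 8 of the 15 variant genes.

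A stem-loop was searched on the transcript strand as a 16-base motif, GGNNNNTNTNNNNNCC, whose first 6 bases pair with its last 6 around a 4-base loop. It was found in 44 of 65 clustered genes (67.7%), in 1 of 15 variant genes (6.67%, H2afx) and in 131 of 21871 other protein-coding genes (0.599%). The sequences below show the stem-loop in capitals with its flanks, for genes whose values follow. The first form was found in 24 members, the Hist4h4 form in 7 (all H4 genes) and the Hist1h3e form in 6. The H2afx form was found in no other member, as were those of Hist1h4a, Hist1h3g and Hist2h2ac, which are not shown.
Hist1h1c (chr13:23739512-23739527, + strand): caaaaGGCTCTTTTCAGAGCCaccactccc
Hist1h1e (chr13:23621782-23621797, - strand): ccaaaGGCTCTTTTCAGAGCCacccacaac
Hist1h2bg (chr13:23571843-23571858, + strand): ccaaaGGCTCTTTTCAGAGCCacccatact
Hist1h3e (chr13:23561903-23561918, - strand): aaaacGGCTCTTTTAAGAGCCacctccatt
Hist4h4 (chr6:136803998-136804013, - strand): acaaaGGCCCTTTTCAGGGCCcacaaagca
H2afx (chr9:44335240-44335255, + strand): acaaaGGCCCTTTTAAGGGCCaccacctcc

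Promoter windows from RefSeq (GRCm38.p6, 250 bases before to 50 after the start) were matched for 60 clustered and 11 variant genes and searched on both strands for 3 motifs, none of which contains another. CCAAT stood in 85% of the clustered windows, 72.7% of the variant windows and 37.9% of all 27025 windows. Among clustered genes it was in every matched H1, H2A, H2B and H3 window and in 25% of the H4 windows. TATAAA was in 58.3% of clustered, 0% of variant and 14.2% of all windows. The octamer ATTTGCAT was in 38.9% of clustered H2A and 35.7% of clustered H2B windows, in none of the matched H1, H3 and H4 windows, and in 1.75% of all windows. The window of Hist1h2bg, an H2B gene, is shown because it holds all 3 motifs, in capitals on either strand.
Hist1h2bg (chr13:23571150-23571449, + strand): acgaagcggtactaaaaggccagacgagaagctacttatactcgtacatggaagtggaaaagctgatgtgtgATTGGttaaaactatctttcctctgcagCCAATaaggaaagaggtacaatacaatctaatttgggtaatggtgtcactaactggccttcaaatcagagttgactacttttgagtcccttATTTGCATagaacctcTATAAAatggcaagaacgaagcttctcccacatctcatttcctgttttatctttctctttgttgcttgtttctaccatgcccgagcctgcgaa

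Copies of one histone type are alike, so reads can match several of them. In the median clustered gene, 55.0% of its exonic 50-base words also stood in another annotated gene, against 8.03% in the median variant gene and 0.866% in the median gene tested. With 25-base words the medians were 63.3% and 13.1%. Over 50% of the words were shared in 34 clustered genes, and 5 were shared in full. Words were matched on either strand against every annotated gene. Words in a gene that overlaps the member at the same place therefore also count as shared, without a second copy. How reads that fit several genes were counted is not given in the sources used here, nor is whether both groups were aligned and counted alike. The count of such a gene is uncertain, and so is any difference between the groups at it. Shared percentages over 5% are given with most of the histone genes named below.

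Most histone counts came from variant genes. The 15 variant genes together took 2067, 2112 and 1952 CPM of all gene counts, without further scaling, in the controls and 1577, 1543 and 1385 with AMI-5 (2043.6 ± 82.6 and 1501.6 ± 102, SD, n = 3 each). Every AMI-5 library was below every control library. The 65 clustered genes together took 295, 296.5 and 189 CPM of all gene counts in the controls and 233, 246 and 195 with AMI-5 (260 ± 61.7 and 225 ± 26.5, SD, n = 3 each), and the groups overlapped. These sums are given without a test.

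One linker histone gene, Hist1h1c, held 72.0% of the clustered counts in the controls and 70.6% with AMI-5. The other 64 clustered genes took 80.6, 69.9 and 69.1 CPM of all gene counts in the controls and 68.8, 69.6 and 59.3 with AMI-5. Variant counts were 7.01, 7.12 and 10.3 times the clustered counts in the controls and 6.77, 6.26 and 7.10 times with AMI-5. Without Hist1h1c these ratios were 25.7, 30.2 and 28.2, and 22.9, 22.2 and 23.3, lower in each AMI-5 library than in each control library.

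**Figure D1:**
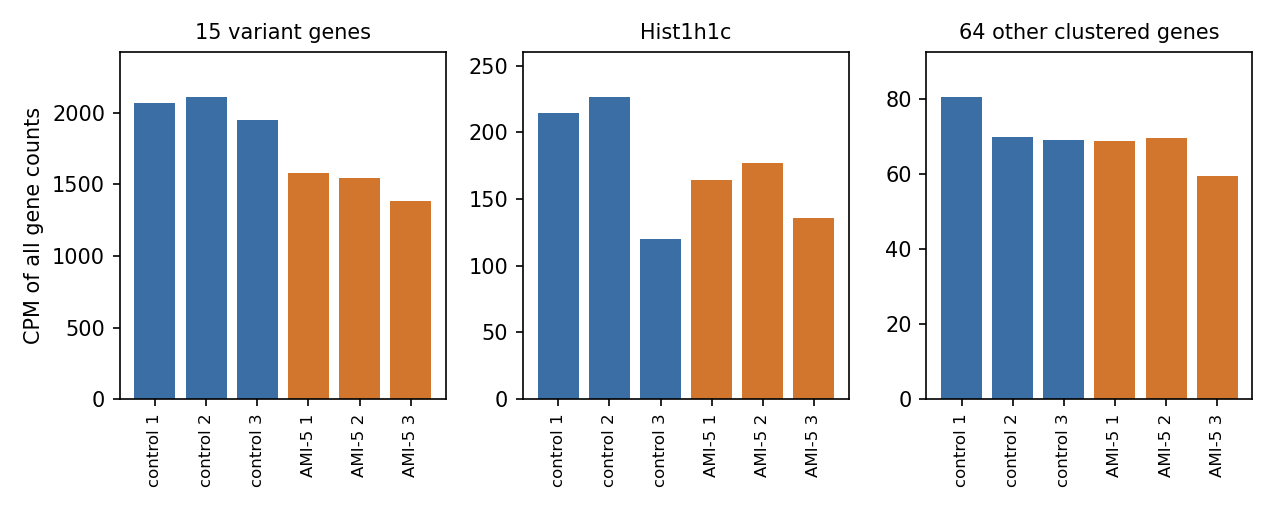
CPM of all gene counts (bars, from 0) in each control library (blue) and AMI-5 library (orange) for the 15 variant genes, Hist1h1c and the 64 other clustered genes. The variant sums do not overlap between groups (1952 to 2112 against 1385 to 1577), and control library 3 is the lowest for Hist1h1c, at 120 CPM.

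Of the 15 variant genes, 10 passed the count filter, and 8 of these were lower and 1 higher with AMI-5 by edgeR's quasi-likelihood test at a Benjamini-Hochberg adjusted p under 0.05. The median log2 fold change was -0.55. Over all 17519 genes tested, 27.5% were higher and 26.6% lower (54.1% in either direction), with a median of -0.0013. In 1 variant gene every AMI-5 library was above, and in 8 below, every control library, as in 31.3% and 30.6% of all genes tested. Scaling by library totals alone gave 3962 genes higher and 5883 lower (22.6% and 33.6%), in place of 4820 and 4652, and 1 variant gene higher and 9 lower, H3f3b being the one added. The germ-line members H1foo, H1fnt, H2afb1 and H2afb3 had 0 reads in all 6 libraries (a count of 0 allows up to 3 counts in a library), and H2afb2 had 1. Among the germ-line markers Ddx4, Dazl, Prm1, Tnp1 and Sycp3, the summed level was 0.22 to 0.54 CPM in controls and 0.45 to 0.63 with AMI-5, and none passed the filter.

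Linker variant H1f0 (chromosome 15, 79028212 to 79030498), known for accumulating in cells that stop dividing, had 558, 581 and 515 CPM in the controls and 487, 467 and 407 with AMI-5. The groups did not overlap, and the gene was lower by a log2 fold change of -0.28 (SE 0.074, edgeR adjusted p = 0.00665). It shared 5.68% of its words. The other linker variant measured, H1fx (chromosome 6, 87980421 to 87981637), had 54.0, 53.1 and 57.2 CPM in the controls and 27.6, 25.5 and 24.4 with AMI-5, again with no overlap (log2 fold change -1.08, SE 0.070, edgeR adjusted p = 1.04e-07). H1fx had a GC content of 71.3% and shared 14% of its words. That share includes words in the 213 bases where it overlaps the antisense gene Gm5577. After trends of the fold change with GC content and length were removed, its log2 fold change was -0.50 with trends fitted on unique-sequence genes and 0.0054 with trends fitted on all genes.

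H2A variants made up 6 of the 10 genes tested, and 5 were lower. The larger decrease of the macroH2A pair was that of H2afy2, which encodes macroH2A2, a histone with a large extra domain found in silent chromatin (chromosome 10, 61738665 to 61784147, with 233 exonic bases shared with Aifm2 on the other strand). It had 49.8, 48.5 and 58.6 CPM in the controls and 18.5, 20.5 and 20.8 with AMI-5 (log2 fold change -1.39, SE 0.088, edgeR adjusted p = 8.39e-08, 15.4% shared). H2afy (chromosome 13, 56073619 to 56136361), which encodes macroH2A1, had 176, 173 and 173 CPM in the controls and 128, 122 and 128 with AMI-5 (log2 fold change -0.46, SE 0.052, edgeR adjusted p = 1.47e-05, 5.94% shared). In both genes every AMI-5 library was below every control library.

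H2afx (chromosome 9, 44334694 to 44336077) encodes H2A.X, the variant that is phosphorylated at DNA breaks, and is the single variant gene with a stem-loop, shown above. It had 133, 128 and 119 CPM in the controls and 70.2, 73.8 and 70.8 with AMI-5 (log2 fold change -0.82, SE 0.060, edgeR adjusted p = 3.36e-07, 9.66% shared). Its gene model ran 822 bases past the loop, so the counts cover both the form that ends at the loop and a longer form, which these counts do not separate. H2afj (chromosome 6, 136808244 to 136810074), a variant close to standard H2A, had 56.5, 49.0 and 54.1 CPM in the controls and 29.3, 35.9 and 36.8 with AMI-5 (log2 fold change -0.64, SE 0.092, edgeR adjusted p = 1.13e-04, 7.0% shared). The groups of both genes did not overlap.

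The H2A.Z genes H2afv (chromosome 11, 6427229 to 6444443) and H2afz (chromosome 3, 137864487 to 137866922) gave opposite signs. H2A.Z is found at nucleosomes next to transcription start sites. H2afv, with 0% of its words shared, had 88.7, 77.9 and 84.8 CPM in the controls and 68.6, 60.05 and 70.2 with AMI-5, with no overlap (log2 fold change -0.34, SE 0.074, edgeR adjusted p = 0.00214). H2afz was the only variant gene called higher, at 8.37, 12.9 and 9.62 CPM in the controls and 24.2, 20.3 and 21.2 with AMI-5 (log2 fold change 1.09, SE 0.14, edgeR adjusted p = 8.19e-05).

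H2afz shared 35.4% of its words with other genes. Its 384 coding bases were all identical to those of the processed pseudogene Gm8203 (chromosome 6, 116173737 to 116174123), an intronless copy that lies within the span of Tmcc1. The first 60 coding bases of each are shown because a read lying within this stretch fits both.
H2afz: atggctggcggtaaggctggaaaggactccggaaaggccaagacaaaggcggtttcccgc
Gm8203: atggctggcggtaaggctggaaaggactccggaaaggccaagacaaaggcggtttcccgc
Gm8203 held 41, 27 and 22 reads in the controls and 2003, 1896 and 1954 with AMI-5. With the reads at its 3 pseudogene copies added to H2afz, an alternative chosen after seeing the data, the gene stood at 11.7, 15.1 and 11.8 CPM in the controls and 117, 107 and 106 with AMI-5 (log2 fold change 3.09, SE 0.093, edgeR adjusted p = 6.89e-11). Processed pseudogenes as a class moved the same way: 1576 of 1679 tested were higher and 30 lower, and the median log2 fold change was 4.46. The part of these reads in the H2afz value was not tested. With GC and length trends over all genes removed, H2afz stood at 0.40 (edgeR adjusted p = 0.0376), H2afv at -1.27, H2afj at -1.05 and H1f0 at -0.58, and with trends over unique-sequence genes removed H2afx stood at -0.50.

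The H3.3 genes H3f3a (chromosome 1, 180800832 to 180813943) and H3f3b (chromosome 11, 116021912 to 116027962) encode the H3 variant laid down outside replication. H3f3a had 133, 119 and 123 CPM in the controls and 74.0, 68.9 and 67.2 with AMI-5, with no overlap (log2 fold change -0.84, SE 0.064, edgeR adjusted p = 4.83e-07, 27.1% shared). H3f3b had 797, 808 and 646 CPM in the controls and 705, 680 and 605 with AMI-5, and the groups overlapped because control library 3 lay below AMI-5 libraries 1 and 2 (log2 fold change -0.18, SE 0.091, edgeR adjusted p = 0.125, 6.86% shared). Without control library 3, H3f3b gave -0.28 (edgeR adjusted p = 0.00697).

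Pseudogene copies of both H3.3 genes held more reads in every AMI-5 library than in any control library. The 14 counted copies of H3f3a held 12, 10 and 22 reads in the controls and 268, 230 and 275 with AMI-5, and the 2 copies of H3f3b held 93, 95 and 70, and 1752, 1657 and 1646. Adding them moved the log2 fold change of H3f3a to -0.64 (edgeR adjusted p = 5.53e-06) and that of H3f3b to -0.038 (edgeR adjusted p = 0.745). H2afx, H2afy2 and H2afj, with 3, 1 and 1 pseudogenes added, stood at -0.78, -1.27 and -0.62 after the same step. Each pseudogene was added to the variant gene with which it shared most words, and its likeness to clustered genes was not weighed. The 3 added to H2afx may therefore be copies of clustered H2A genes. They held 1, 3 and 2 reads in the controls and 41, 71 and 46 with AMI-5, beside 0, 1 and 1, and 41, 69 and 46, at the pseudogene Hist1h2al.

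**Figure D2:**
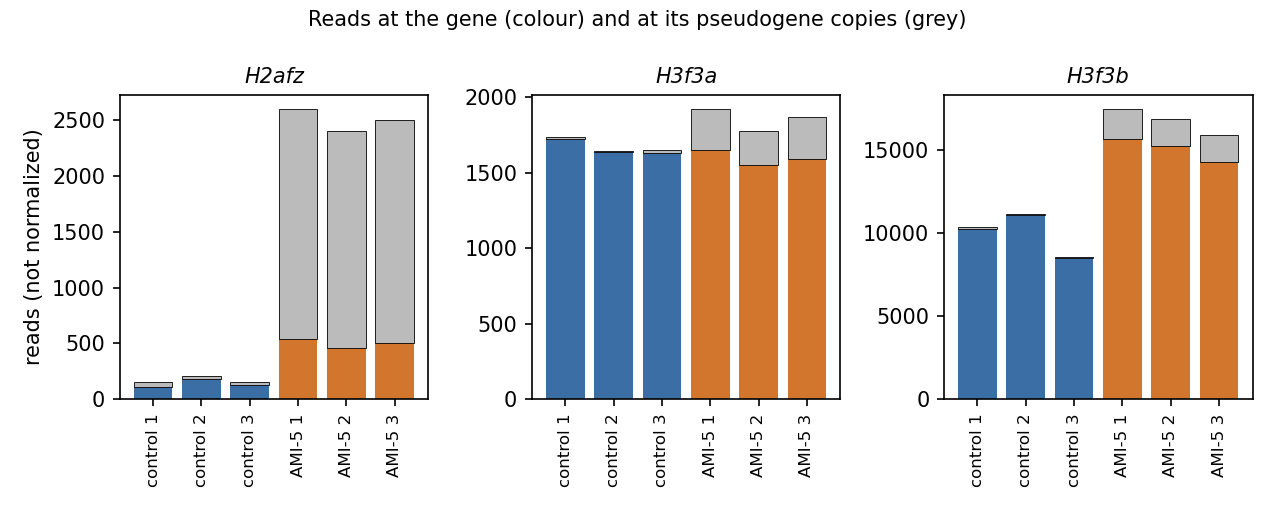
Reads, not scaled for depth, at H2afz, H3f3a and H3f3b (colour: blue control, orange AMI-5) and, stacked on top in grey, at their 3, 14 and 2 pseudogene copies, per library. In H2afz the copies hold most reads of each AMI-5 library, and in the controls they hold 29 to 43 reads.

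Per kilobase of gene model, the order of variant levels in the controls was H3f3b (252 CPM per kilobase), H1f0 (241), H2afx (91.5), H2afv (51.3), H1fx (45.0), H3f3a (35.8), H2afj (29.1), H2afy (25.6), H2afy2 (24.1) and H2afz (5.80). The libraries of H3f3b overlapped those of H1f0, and those of H2afy overlapped those of H2afy2, so neither pair could be ordered. With AMI-5 the levels per kilobase were 223 for H3f3b, 198 for H1f0, 51.7 for H2afx, 40.6 for H2afv, 21.2 for H1fx, 20.0 for H3f3a, 18.6 for H2afj, 18.5 for H2afy, 12.3 for H2afz and 9.17 for H2afy2. The last places were exchanged between H2afy2 and H2afz. Reads at pseudogene copies are left out of these levels, so the place of H2afz rests on reads at the gene alone. In the AMI-5 libraries its 3 copies held 2059, 1945 and 1999 reads, beside 539, 456 and 503 at the gene.

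**Figure D3:**
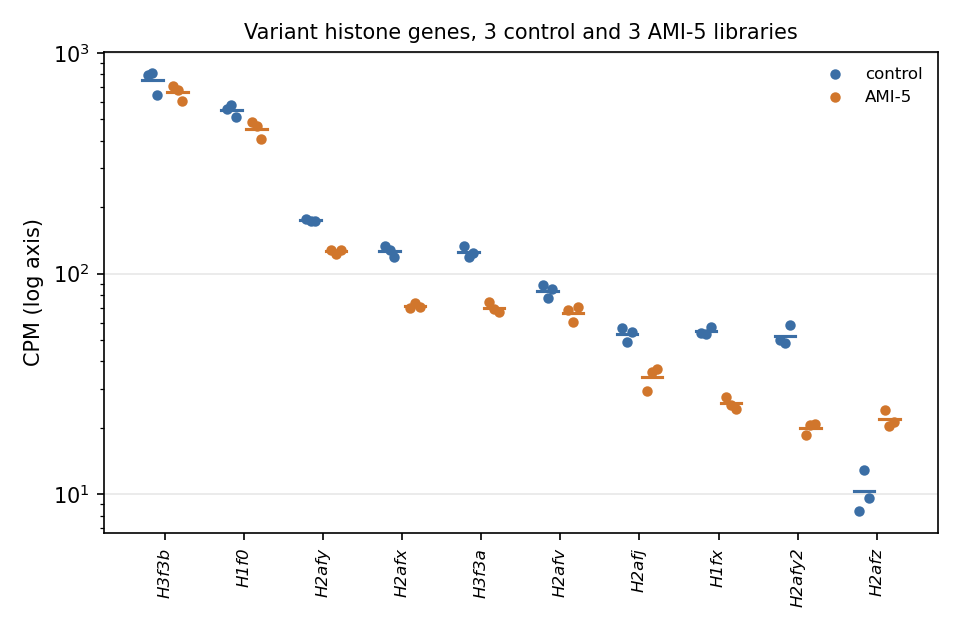
CPM on a log axis of the 10 variant genes that passed the filter, ordered by mean level, in 3 control (blue) and 3 AMI-5 (orange) libraries, with horizontal lines at the means. AMI-5 points lie below all control points in 8 genes, above them in H2afz, and overlap them in H3f3b.

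Of the 65 clustered genes, 55 had under 100 reads over all 6 libraries, 10 reached a mean of 1 CPM and 5 a mean of 5 CPM. Hist2h2aa1 and Hist2h3c1 had 0 reads in every library, and both overlap the gene Gm20634. The filter kept 23 clustered genes, of which 3 were higher, 7 lower and 13 not called (edgeR, adjusted p under 0.05). These are 13.0% and 30.4% of the 23, beside 27.5% and 26.6% of all genes tested and 20.1% and 30.65% of the 14571 protein-coding genes tested. Only 9 of the 23 passed the filter in both groups, and of these 1 was higher (Hist1h2bc), 1 lower (Hist1h1e) and 7 not called. The 2 other higher genes passed through the AMI-5 libraries alone and the 6 other lower genes through the controls alone, so those calls follow in part from the filter and their counts are a description. With a mean of at least 1 CPM required in place of the filter, 2 were higher and 2 lower of 10. The groups did not overlap in 5 genes higher and 7 lower of the 23, beside 31.3% and 30.6% of all genes tested. Without control library 1 the higher calls were 5 of 28 (25.7% of all genes then tested), and without control library 2 or 3 the lower calls were 12 of 32 or 11 of 28 (23.0% and 23.4%). The median log2 fold change of the 23 was -0.25, and it was -0.57 without control library 1, -0.92 without control library 2 and -1.02 without AMI-5 library 2. With no filter 7 were higher and 19 lower of 63 clustered genes (median -0.74), with 20.3% and 15.0% of all 30813 genes called higher and lower.

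Single-exon protein-coding genes other than the members, the class the clustered genes belong to by structure, had 117 higher and 96 lower of 408 tested, with a median of -0.03. Among the 249 of them with under 5% shared words, 41 were higher and 73 lower (median -0.11).

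The clustered gene with the highest level, also per kilobase, was Hist1h1c. This gene, for a linker histone also made in non-dividing cells, had 213, 220 and 113 CPM in the controls and 170, 180 and 142 with AMI-5, so that control library 3 lay below all others. It was not called (log2 fold change -0.15, SE 0.30, edgeR adjusted p = 0.710, 8.54% shared). Without control library 3 it was lower (log2 fold change -0.40, edgeR adjusted p = 0.00434). Its gene model ran 840 bases past the stem-loop.

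Of the other H1 genes, Hist1h1e had 6.20, 5.25 and 3.87 CPM in the controls and 1.84, 3.56 and 2.32 with AMI-5 and was lower with no overlap (log2 fold change -0.98, SE 0.26, edgeR adjusted p = 0.00768, 32.0% shared). Hist1h1b, with 0% shared, had 18, 16 and 18 reads in the controls and 8, 20 and 4 in the deeper AMI-5 libraries. In CPM these were 1.39, 1.17 and 1.36 against 0.359, 0.891 and 0.169, with no overlap (log2 fold change -1.46, SE 0.46). The gene passed the filter through the controls alone, so its lower call follows in part from the filter and no p is given. That call was lost without control library 1 or 3 or AMI-5 library 1, and without AMI-5 library 2 the log2 fold change was -2.27. With GC and length trends over all genes removed, Hist1h1b stood at -3.08 and Hist1h1e at -2.77. Hist1h1d (4.96, 4.23 and 2.43 against 3.95, 4.41 and 2.87 CPM) overlapped and gave a log2 fold change of -0.049 (edgeR adjusted p = 0.887). Hist1h1a and the testis gene Hist1h1t did not pass the filter, with 39 and 3 reads in the controls and 26 and 1 with AMI-5.

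Only 3 of 18 H2A genes passed the filter. Hist3h2a, on chromosome 11, had 6.20, 6.05 and 4.396 CPM in the controls and 8.03, 6.82 and 7.10 with AMI-5, without overlap, and narrowly missed the threshold (log2 fold change 0.40, SE 0.16, edgeR adjusted p = 0.0546, 31.5% shared). It shares 708 exonic bases with Trim17 on the same strand, and the words in them count as shared. Of its 16 alternative fits, 7 passed the threshold. Hist1h2ak had 22, 14 and 10 reads in the controls and 7, 10 and 4 with AMI-5 (log2 fold change -1.89, SE 0.43, 57.0% shared). It passed the filter through the controls alone, so its lower call follows in part from the filter and no p is given. Hist1h2ao had 1, 0 and 0 reads in the controls and 16, 28 and 28 with AMI-5. It passed the filter through the AMI-5 libraries alone, so its higher call follows from that choice and no p is given.

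Over the groups Hist1h2ao had 1 read against 72, a ratio of read rates of 39.3, given as a description without an interval for the same reason. Its words are shared to 93.5% with Hist1h2ap, which had 0 reads in the controls and 29 with AMI-5. Hist1h2bq had 0 and 31 reads and Hist2h2aa2 had 1 and 25. These 3 genes were chosen after their values were seen and did not pass the filter, so only their reads are given. The pseudogene Hist1h2al, also chosen after its values were seen and a copy of H2A sequence on chromosome 13, held 0, 1 and 1 reads in the controls and 41, 69 and 46 with AMI-5.

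H2B genes held the 2 other higher calls. Hist1h2bc had 8.37, 6.78 and 10.6 CPM in the controls and 16.1, 13.7 and 14.95 with AMI-5, with no overlap (log2 fold change 0.80, SE 0.15, edgeR adjusted p = 7.05e-04, 30.6% shared). Its sign turned to -1.26 when GC and length trends over all genes were removed. Hist1h2bg, chosen after its values were seen, had 5, 6 and 6 reads in the controls and 21, 30 and 25 with AMI-5 (log2 fold change 1.37, SE 0.33, 49.7% shared). It too passed the filter through the AMI-5 libraries alone.

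Of the other 4 H2B genes tested, 0 were higher and 1 was lower. Hist2h2be, with 0% of its words shared, had 8.21, 9.84 and 8.87 CPM in the controls and 13.0, 10.9 and 8.83 with AMI-5, overlapping (log2 fold change 0.28, SE 0.15, edgeR adjusted p = 0.135). Without AMI-5 library 3 it passed the threshold (0.43, edgeR adjusted p = 0.0275). Hist3h2ba had 9.69, 11.4 and 7.65 against 8.97, 7.71 and 7.52 CPM (log2 fold change -0.25, edgeR adjusted p = 0.191, 22.1% shared), and -0.39 without control library 3 (edgeR adjusted p = 0.0432). Hist2h2bb, chosen after its values were seen, was the lower gene, at 16, 9 and 10 reads against 8, 9 and 5 (log2 fold change -1.43, SE 0.41). It passed the filter through the controls alone, so its call follows in part from the filter and no p is given. All of its words stood in another gene, and it lies wholly within the antisense gene Gm20628, whose words count as shared.

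Among H3 genes, 1 of 3 tested was called. Hist1h3e had 33, 17 and 20 reads in the controls and 10, 11 and 15 with AMI-5, or 2.56, 1.24 and 1.52 against 0.449, 0.490 and 0.634 CPM (log2 fold change -1.73, SE 0.34, 73.4% shared). It passed the filter through the controls alone, so its lower call follows in part from the filter and no p is given. Hist2h3c2 (6, 11 and 8 reads against 18, 21 and 20 in the deeper AMI-5 libraries) was not called (log2 fold change 0.46, 63.5% shared). Its CPM did not overlap between the groups. It passed the filter through the AMI-5 libraries alone, so these values are a description and no p is given. Hist1h3d (5, 10 and 7 against 6, 15 and 6 reads) overlapped in CPM and gave -0.47 (edgeR adjusted p = 0.429, 24.8% shared).

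H4 genes had 7 members tested, 0 higher and 2 lower. Both of the lower genes passed the filter through the controls alone, so these calls follow in part from the filter and no p is given. Hist4h4, chosen after its values were seen, had 20, 12 and 13 reads in the controls and 7, 3 and 8 with AMI-5 (log2 fold change -2.08, SE 0.41, 8.52% shared). Hist1h4d had 18, 8 and 19 reads against 12, 11 and 11 (log2 fold change -1.18, SE 0.37, 10.2% shared). The Hist1h4d call was lost without control library 1 or 3 or AMI-5 library 3 and with DESeq2. With GC and length trends over all genes removed, Hist1h4d stood at -3.73 and Hist1h3e at -3.32. Hist1h4i, the most highly counted H4 gene per kilobase, had 4.57, 3.28 and 3.41 CPM in the controls and 3.68, 3.47 and 3.17 with AMI-5 (log2 fold change -0.12, edgeR adjusted p = 0.604, 28.9% shared). Hist2h4 gave -0.73 and was not called. It too passed the filter through the controls alone, so no p is given.

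**Figure D4:**
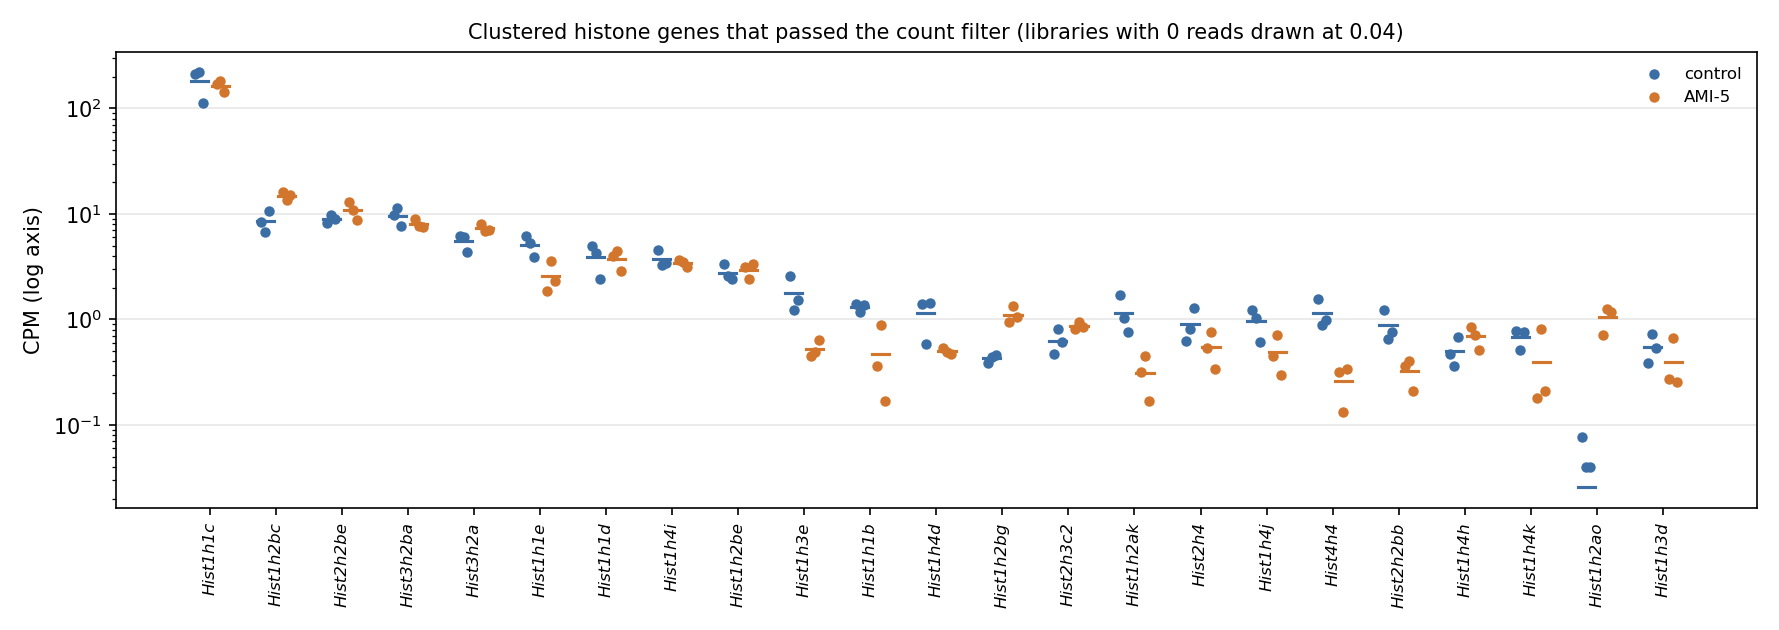
CPM on a log axis of the 23 clustered genes that passed the filter, ordered by mean level, in 3 control (blue) and 3 AMI-5 (orange) libraries, with lines at the means and libraries with 0 reads drawn at 0.04 CPM. Hist1h1c lies above 100 CPM in all libraries, and 13 of the 23 genes have a mean under 1 CPM.

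The 42 clustered genes below the filter together took 14.4, 8.56 and 10.4 CPM of all gene counts, without further scaling, in the controls and 5.29, 7.86 and 5.16 with AMI-5, with no overlap. Their highest totals in the controls were 39 reads for Hist1h1a, 30 for Hist1h2bl and 27 for Hist1h2bj, against 26, 9 and 7 with AMI-5. All 42, with Hist1h2ap, Hist1h2bq and Hist2h2aa2 above among them, are given only as a sum or as reads.

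Shared sequence ran over the whole range among the clustered genes tested. The 3 higher genes, Hist1h2ao, Hist1h2bg and Hist1h2bc, shared 93.5%, 49.7% and 30.6% of their words, and all encode H2A or H2B. The 7 lower genes ran from 0% (Hist1h1b) to 100% (Hist2h2bb). Of the 4 tested genes with under 5% shared, 0 were higher and 1 lower. Of the 11 with over 30% shared, 3 were higher (27.3%) and 4 lower (36.4%), beside 27.5% and 26.6% of all genes tested. Among the called genes only Hist1h2bc and Hist1h1e passed the filter in both groups, so the other calls follow in part from the filter. These are descriptions of few genes, without a test.

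**Figure D5:**
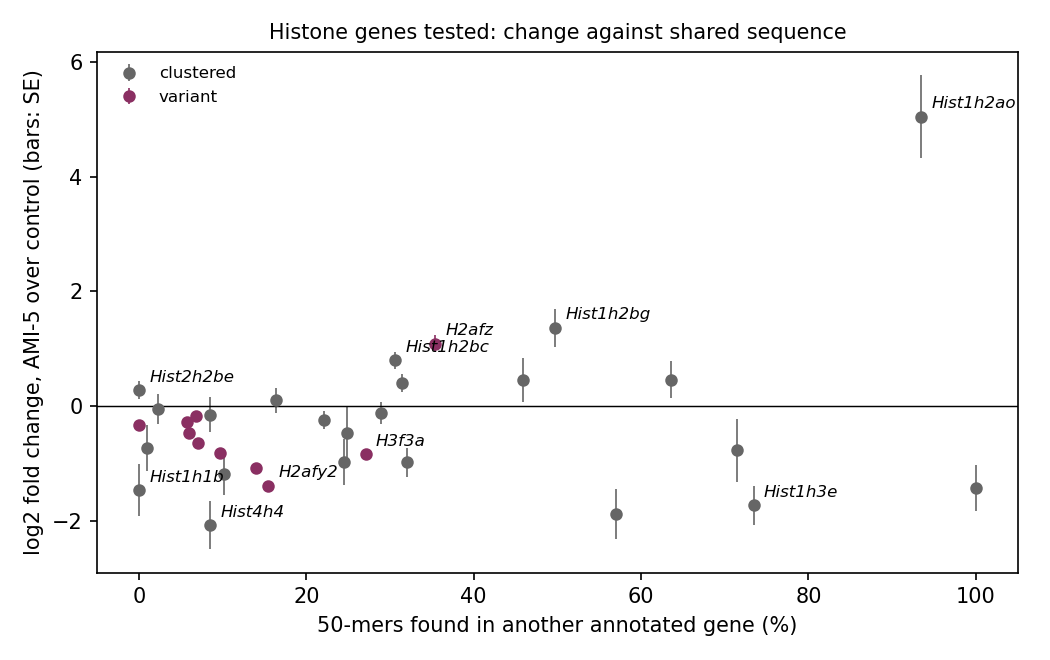
Log2 fold change, AMI-5 over control, with its SE (vertical bars) against the percent of a gene's exonic 50-base words found in another annotated gene, for 23 clustered (grey) and 10 variant (purple) genes tested. H2afz, at 35.4% shared, is the variant gene above 0, and Hist1h2ao stands alone at 5.04, from 1 read in the controls and past the filter through the AMI-5 libraries alone.

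Gene models and stem-loops also differed within the clusters. In 30 clustered genes the model ended within 100 bases of the loop, a limit chosen after seeing the data, and these summed to 17.0 ± 2.76 CPM in the controls and 14.1 ± 3.17 with AMI-5 (SD, n = 3 each), with 2 higher and 2 lower of 7 tested. In 14 the model ran further, Hist1h1c among them, and 0 were higher and 2 lower of 10 tested, Hist1h1c included. Without Hist1h1c the class summed to 27.5 ± 3.69 and 24.6 ± 1.75 CPM. The 10 genes with no loop in a model longer than the coding sequence, Hist1h2bc and Hist2h2be among them, summed to 21.02 ± 1.52 and 27.7 ± 2.78 CPM, with 1 higher and 1 lower of 3 tested. The 11 genes whose model holds the coding sequence alone summed to 5.58 ± 1.95 and 1.73 ± 0.62 CPM, with 0 higher and 2 lower of 3. The 3 tested in the last class were Hist1h2ak, Hist2h2bb and Hist1h4k. Among the genes called in these classes, only Hist1h2bc and Hist1h1e passed the filter in both groups. The other calls follow in part from the filter, so these counts are a description, beside 27.5% higher and 26.6% lower of all genes tested. Whether RNA was selected by its poly(A) tail is not given in the sources used here, and its part in the low counts of genes whose mRNAs end at the loop was not tested.

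Genes that serve histone supply were read in the same fit from lists of 62 genes in all. Of the 59 tested, 4 were higher and 41 lower (6.78% and 69.5%, beside 27.5% and 26.6% of all genes and 20.1% and 30.65% of protein-coding genes tested), and the median log2 fold change was -0.33. Without control library 1 or 2 or AMI-5 library 2 the higher calls were 2. Of 15 genes that process histone mRNA, 2 were higher and 6 lower (median -0.15). Slbp, which encodes the stem-loop binding protein, was lower at 51.4 ± 3.22 CPM in the controls and 43.8 ± 1.79 with AMI-5 (SD, n = 3 each; log2 fold change -0.23, edgeR adjusted p = 0.0117, 8.80% shared). Zfp473, a zinc finger protein of the U7 processing complex, fell by 1.10 on the log2 scale, from a mean of 3.53 to 1.64 CPM. Srrt (-0.86), Upf1 (-0.68), which acts in histone mRNA decay, and Sympk (-0.49), a scaffold of the cleavage complex, were also lower. Upf1 was no longer called with GC and length trends over all genes removed (-0.15, edgeR adjusted p = 0.121). Cpsf3, the endonuclease that cuts the pre-mRNA, was higher at 64.9 ± 6.77 and 82.9 ± 2.34 CPM (log2 fold change 0.35, edgeR adjusted p = 0.00157). Npat, the activator of clustered histone transcription, was also higher (0.19, edgeR adjusted p = 0.0345) and was chosen after its values were seen. Slbp and Cpsf3 also stand outside the rule for named genes given below.

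Of 21 histone chaperones, which carry histones to and from DNA, 2 were higher and 14 lower (median -0.33). Chaf1a, a subunit of the assembly factor that places new H3 and H4 behind the fork, had a log2 fold change of -0.98 (49.7% shared), and Mcm2, which also binds H3 and H4 at the fork, -0.65. Anp32e, which removes H2A.Z, had -0.58, Npm1 -0.45 (24.3% shared) and Ssrp1, of the FACT complex, -0.43, all lower by the same test. The 2 higher genes were Nap1l1 (0.23, 21.2% shared) and Asf1a (0.22, 43.1% shared), chosen after their values were seen. The centromeric H3 variant Cenpa, outside the name rule, was lower at 52.5 ± 3.62 and 31.5 ± 1.76 CPM (log2 fold change -0.74, edgeR adjusted p = 5.35e-06), and Hils1 and H2bfm had 0 reads and Hypm had 1.

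Of 23 S-phase genes, 0 were higher and 21 lower, and their median log2 fold change was -0.59. Mcm7 (-1.04, 23.3% shared), Mcm5 (-0.77) and Mcm6 (-0.21) of the replicative helicase and the nucleotide-synthesis genes Tyms (-1.01, 5.72% shared), Rrm2 (-0.83) and Rrm1 (-0.27) were lower. Tyms had 68.6 ± 0.64 CPM in the controls and 34.0 ± 1.38 with AMI-5. The Mcm6 call was lost without AMI-5 library 3 (edgeR adjusted p = 0.06). The difference between these lists and the histone genes was not tested.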

How the data were processed

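RNA-seq of 3 control and 3 AMI-5 pancreas samples was deposited by the authors as 1 table of raw read counts per gene. The aligner GSNAP, featureCounts 1.6.2, bcl2fastq 2.19.1 and the mm10 build are named in the submitters' processing notes, and Ensembl release 87 in the table. On read length, strand setting and the counting of reads that fit several genes the sources used here give nothing. The table held 49763 entries, 92 of them spike-ins with 1 read in all, which were left out. Of the 49671 genes, 49412 matched a symbol in GENCODE mouse release 21.

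Counts were tested with edgeR 4.0.16 (R 4.3.3): TMM scaling, filterByExpr by group, robust quasi-likelihood F test, two-sided, Benjamini-Hochberg over 17519 genes. CPM uses TMM-scaled library sizes. Shared words were counted over annotated transcripts on both strands, with genes that overlap at the same place included. A gene with under 5% shared is called unique-sequence. Alternatives were other scalings and filters, DESeq2 1.42.0, limma 3.58.1 voom, a replicate block, GC and length trends removed, unique-sequence genes only and each library left out. Adding the reads of pseudogene copies (those holding at least 1% of a variant gene's words) and leaving out Hist1h1c were chosen after seeing the data.

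On simulated counts of these 17519 genes for this comparison, 66, 67 and 67 genes were changed by 0.5, 1 and 2 on the log2 scale. Of these edgeR recovered 40.9%, 70.1% and 94.0%, and 6.8% of calls were false. In the data 54.1% of genes were called, far more than were changed in the simulation, so these rates may not hold here. They run over genes of all levels and were not taken for the clustered genes. Named genes were every variant gene with a mean of at least 5 CPM, in each clustered type the 3 highest by CPM and the 3 highest among unique-sequence genes, of clustered genes called with a mean of at least 1 CPM the 3 largest rises and falls, and of each other list 4 by smallest p and 2 by CPM. The members and lists were chosen with earlier results of these data known.

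Replicates of a group differed by more than sampling noise (chi-square per degree of freedom 6.71 to 16.1). Each library was counted as 1 sample, though this spread does not show that the libraries came from separate animals or cultures.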

Additional observations from a re-analysis of the deposited data

How the results depend on the processing

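The clustered genes called higher, 3 in the fit reported, of 23 tested, were 7 of 63 with no filter, 0 of 4 among unique-sequence genes alone and 1 of 23 with GC and length trends over all genes removed, and 3 to 5 with a library left out. Those called lower, 7, were 19 of 63, 1 of 4 and 16 of 23 under the same settings, where 4617 of 30813, 2733 of 10915 and 5853 of 17519 of all genes were lower, and 2 of 10 when a mean of 1 CPM was required, and 6 to 12 with a library left out. Variant genes called, 1 higher and 8 lower, were 0 and 1 of the 1 tested among unique-sequence genes alone. The supply genes called higher, 4, were 1 by library totals, 2 among unique-sequence genes, 2 and 1 with trends removed over unique-sequence or all genes, 2 with DESeq2 and 2 to 4 with a library left out; those called lower, 41 of 59, were 27 of 41 among unique-sequence genes. With trends over all genes removed, the median of the clustered genes tested was -1.98, Npm1 stood at -0.99, Rrm1 at -0.55, Mcm5 at -0.50, Srrt at -0.57, Ssrp1 at -0.25 and Sympk at -0.27, and with trends over unique-sequence genes removed Npm1 stood at -0.80, Upf1 at -0.39, Mcm2 at -0.43 and Sympk at -0.24. With trends over all genes removed, the fall of H1fx was no longer seen (0.0054) and Hist1h2bc reversed to -1.26, and the cause was not tested. In the same fit Hist1h1d (-2.31), Hist1h3d (-2.62), Hist1h4i (-1.89), Hist2h4 (-1.55), Hist3h2ba (-1.98) and H3f3b (-0.35) were called lower. H3f3b was also called by library totals (-0.27) and with trends over unique-sequence genes removed (-0.29). Among members with under 5% shared, clustered genes took 16.6 (control) and 15.6 (AMI-5) CPM of all gene counts, and variant genes 86.5 and 64.05. Without Hist1h1c the clustered genes took 73.2 and 65.9, and of protein-coding counts the variant genes took 2158.8 and 1604.2 CPM. The median of all genes was shifted to 0.14 with no filter. With the replicate number as a block, 3 clustered genes were higher and 7 lower, and 1 variant gene was higher and 9 lower, H3f3b among them at an adjusted p of 0.0229; same-numbered samples did not deviate together (r from -0.109 to -0.027). Depth limits the clustered genes, of which 55 had under 100 reads.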
